A study of Rattus norvegicus with 6 samples.

Results

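Aldehyde dehydrogenases of the rat renal cortex were examined as a group of 9 named genes: Aldh1a1, Aldh1a7, Aldh2, Aldh3a2, Aldh4a1, Aldh6a1, Aldh7a1, Aldh8a1 and Aldh9a1. A probe was assigned to a gene when its transcript accession belonged to that symbol in the RefSeq gene table, whatever its signal. Of the 27460 probes that received a gene symbol in this way, 13 belonged to 7 of the 9 genes, and these 13 were all bright enough to be tested. Aldh1a7 was not found in the RefSeq gene table, so no probe could be matched to it. Aldh7a1 was in that table but had no matched probe. Neither was analysed here. The rats were male Sprague-Dawley animals of the Crl:CD(SD) stock, 5 weeks old at purchase, kept on a basal diet with tap water. Water was administered to 3 of them (n = 3), and nitrilotriacetic acid trisodium monohydrate, an iron- and zinc-binding chelator abbreviated NTA, to the other 3 (n = 3) at 1000 mg per kg per day, in both groups for 4 weeks. The total RNA of the cortex of each animal was hybridised to a 1-colour Agilent array, and the series describes the animals as biological replicates.

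Aldehyde dehydrogenases oxidise reactive aldehydes to carboxylic acids with NAD+ or NADP+ as the electron acceptor. Some of them clear aldehydes that arise from alcohol, lipid peroxidation or membrane lipids, and others are fixed steps of retinoic acid synthesis, amino acid breakdown, carnitine synthesis or folate metabolism. The proximal tubule, which makes up most of the cortex, is rich in mitochondria and is a site of amino acid, carnitine and retinoid metabolism.

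All levels below are log2 processed signal minus the 75th percentile of the same array, so that a level of 0 is that percentile. Between 68.4% and 73.5% of the 61657 probes that were not controls were well above background on an array. The 75th percentile itself ran from 1296.0 to 1316.4 signal units on the water arrays and from 1132.6 to 1220.2 on the NTA arrays, a log2 difference between the group means of -0.16. Of the 17 proximal tubule markers, 17 were measured, with a mean level of 6.98 to 7.06 on the water arrays and of 6.96 to 7.15 on the NTA arrays. Their log2 differences ran from -0.32 to 0.71 with a median of -0.01, or -0.09 under quantile normalization, and 0 passed the threshold described below. The groups did not overlap for Ggt1, the brush-border glutamyltransferase (0.71 ± 0.21, log2, SE), with NTA above, and for Slc5a12, a lactate transporter (-0.31 ± 0.11), with NTA below. These 2 had an unadjusted p under 0.05 (limma). NTA lay wholly above for 13.0% of all genes and wholly below for 7.25%. Under quantile normalization 1 of the 17 lay wholly above and 6 wholly below, beside 1127 and 1173 of all 11965 genes. With normexp background correction these counts were 5 and 2, beside 1648 and 862 of all genes. All 8 podocyte markers had differences below 0, with a median of -0.14, while 5211 of all 11965 genes lay below 0. Of the podocyte markers 0 passed, and 1 had an unadjusted p under 0.05 (limma) as lower. Medians were also below 0 for collecting duct principal cells (-0.22), distal convoluted tubule (-0.14), endothelium (-0.09) and intercalated cells (-0.03). They were above 0 for the thick ascending limb (0.06) and macrophages (0.11). Adipocyte markers, of which 4 of 6 were tested, had a mean level of -1.96 to -1.70 in water and of -1.89 to -0.89 in NTA, with a median difference of 0.47. Among them the lipid-droplet gene Cidec (1.14 ± 0.36) had NTA arrays wholly above, Fabp4 differed by 1.16 ± 0.75, and Adipoq and Cfd by -0.20 ± 0.22 and -0.44 ± 0.35. Of 6 adrenal cortex markers 2 were tested, Cyp21a1 (0.48 ± 0.14, NTA wholly above) and Cyp11a1 (-0.29 ± 0.23). Liver markers, of which 4 of 7 were tested, had a mean level of -1.07 to -0.51 in water and of -0.65 to -0.41 in NTA. None of these 10 markers passed the threshold, and 3 had an unadjusted p under 0.05 (limma), all as higher. Of all genes, 7.76% had such a p as higher and 4.51% as lower. The part of these cell types in the results was not tested. In RNA of whole cortex, fewer cells of a type and less RNA per cell cannot be told apart. Slide 3, which was scanned on day 2, held water replicate 1 and NTA replicate 2, and the other 4 arrays lay on slides of 1 group each, scanned on day 1.

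None of the 7 measured genes passed the threshold of an adjusted p under 0.05 (limma with Benjamini-Hochberg adjustment over 11965 genes), while 0.0752% of all genes passed it as higher in NTA and 0% as lower. The log2 differences of the 7 ran from -0.20 to 0.17, with a median of 0.07 beside 0.02 over all genes tested. Of the 7, 4 lay above 0, beside 6754 of all 11965 genes. Their adjusted p-values ran from 0.349 to 0.995. In size without regard to sign, the median difference of the 7 was 0.11, beside 0.10 over all genes. The 3 NTA arrays lay wholly above the 3 water arrays for 1 of the 7, Aldh2, and for 13.0% of all genes, and wholly below for 0 of the 7 and for 7.25% of all genes, which makes 20.2% of all genes separate in either direction. Aldh2 was also the 1 gene of the 7 with an unadjusted p under 0.05 (limma), which 7.76% of all genes reached as higher and 4.51% as lower. Of the genes with an unadjusted p under 0.05, 63.2% were higher in NTA, against 52.2% under quantile normalization and 50.4% with the array median as the scale. A single separated gene among 7 is near the share over all genes. Of the 13 probes taken singly, 0 passed an adjusted p under 0.05 over 42071 probes, where 0.0594% of all probes passed as higher and 0.00238% as lower. For 2 of the 13, both of Aldh2, the NTA arrays lay wholly above the water arrays, which held for 10.9% of all probes, while 7.91% of all probes lay wholly below and 18.8% were separate in either direction. These 2 also had an unadjusted p under 0.05, which 6.20% of all probes reached as higher and 4.71% as lower.

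**Figure D1:**
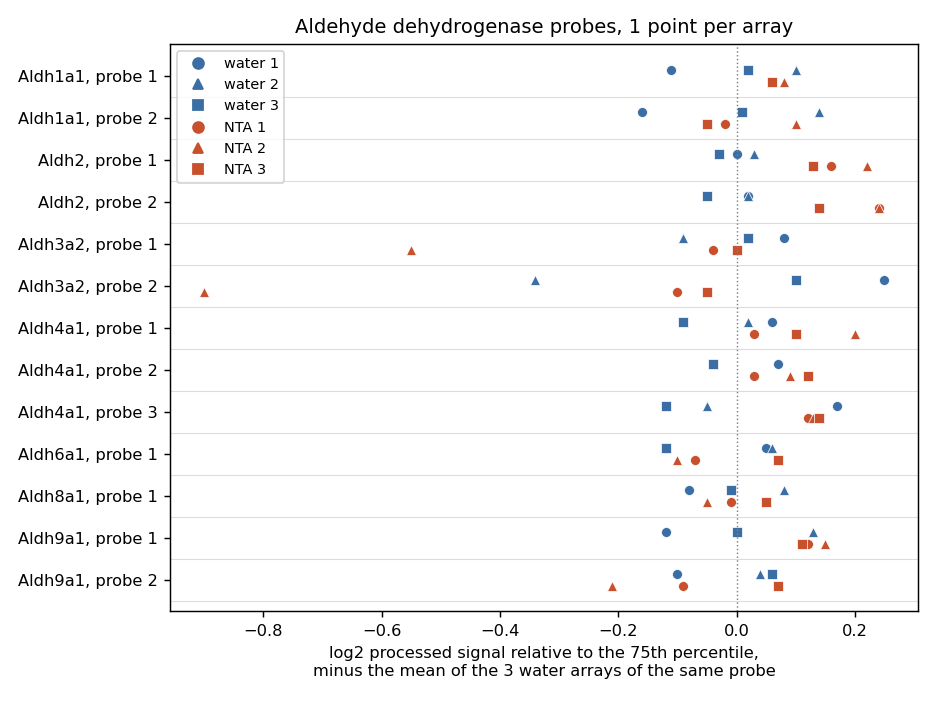
Deviation of each array from the water mean of the same probe (log2 units, horizontal axis) for the 13 probes of 7 aldehyde dehydrogenases, with colour for treatment and marker shape for replicate number. The 3 NTA arrays lie to the right of the 3 water arrays for both probes of Aldh2 and for no other probe, and NTA replicate 2 is the leftmost point on both probes of Aldh3a2.

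Aldh2 encodes the mitochondrial enzyme that oxidises acetaldehyde and also acts on aldehydes of lipid peroxidation. On its brighter probe, A_44_P312546, the level was 6.19, 6.22 and 6.16 on water replicates 1 to 3 and 6.35, 6.41 and 6.32 on NTA replicates 1 to 3. Each NTA array was above each water array, and the arrays of a group differed by less than the gap between the groups. The difference was 0.17 ± 0.06 (log2, SE, n = 3 per group), a 1.13-fold level with a 95% interval of 1.02 to 1.24, at an unadjusted p of 0.0258 and an adjusted p of 0.349 (limma). The second probe, A_64_P023670, read 5.86, 5.86 and 5.79 in water and 6.08, 6.08 and 5.98 in NTA. Its groups were also separate, with a difference of 0.21 ± 0.07 (log2, SE, 1.16-fold, unadjusted p = 0.0193, adjusted p = 0.391 over all probes, limma).

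The separation of the Aldh2 groups was seen in levels after scaling between arrays. The processed signal of the brighter probe before that scaling was 96093, 96710 and 92810 units in water and 99204, 96634 and 92895 in NTA, and the groups overlapped. On that scale the group means were 95204 and 96244 units. Under quantile normalization the difference was 0.10 with an adjusted p of 0.535 (limma), and the groups still did not overlap. Between the 2 arrays of slide 3 the difference was 0.23, and among the 4 arrays of day 1 it was 0.14. The genes whose levels followed those of Aldh2 most closely over the 6 arrays were Xrcc6, a subunit of the Ku complex of DNA repair (Pearson r = 0.9988), Bphl, a serine hydrolase (r = 0.9974), and Rnls, which encodes renalase (r = 0.9946). Of 11956 genes compared, 374 had an r above 0.9 with Aldh2, and these values describe 6 arrays of 2 groups that share their scaling.

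Aldh1a1 encodes the cytosolic enzyme that oxidises retinaldehyde to retinoic acid. Its brighter probe, A_64_P067659, read 6.77, 6.98 and 6.90 in water and 6.94, 6.96 and 6.94 in NTA. The 3 NTA values lay within the span of the water values, which were the more variable (SD 0.10 against 0.01). The difference was 0.07 ± 0.07 (log2, SE), with a 95% interval of -0.11 to 0.24 and an adjusted p of 0.743 (limma). It was 0.19 between the arrays of slide 3 and 0.01 among those of day 1, and under quantile normalization it was -0.01. The other probe, A_44_P365286, read 4.76, 5.06 and 4.93 in water and 4.90, 5.02 and 4.87 in NTA, a difference of 0.01 ± 0.10. Neither probe separated the groups, and water replicate 1 was the lowest array on both.

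The remaining retinoid genes were taken from a list of 23, of which 18 were tested and 0 passed. Their median difference was 0.02, the same as over all genes. An unadjusted p under 0.05 (limma) was reached by 1 member as higher and 2 as lower, beside 7.76% and 4.51% of all genes. Stra6, the membrane receptor for the retinol carrier, read 0.97, 0.83 and 0.86 in water and -0.62, 0.44 and 0.26 in NTA. The 3 NTA arrays were the lower ones and spread over more than a log2 unit, with a difference of -0.86 ± 0.28 and an adjusted p of 0.334 (limma). Without NTA replicate 1, the lowest array, it was -0.54. The retinal reductases Dhrs4 (0.28 ± 0.10), Rdh11 (-0.16 ± 0.06) and Dhrs3 (0.05 ± 0.06) differed by smaller amounts and in both directions.

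Aldh3a2 encodes the fatty aldehyde dehydrogenase of the endoplasmic reticulum, which oxidises long-chain aldehydes of lipid breakdown. The brighter probe, A_44_P265807, read 3.13, 2.96 and 3.07 in water and 3.01, 2.50 and 3.05 in NTA. NTA replicate 2 was the lowest of the 6 arrays, and the other 2 NTA arrays lay within the span of the water arrays. The difference was -0.20 ± 0.16 (log2, SE), the lowest among the 7 genes, with a 95% interval of -0.59 to 0.19 and an adjusted p of 0.649 (limma). Without NTA replicate 2 it was -0.03. Within slide 3 it was -0.63, and within day 1 it was 0.01. The dimmer probe, A_64_P032940, gave -2.00, -2.59 and -2.15 in water and -2.35, -3.15 and -2.30 in NTA, a difference of -0.35 ± 0.28, and NTA replicate 2 was again lowest. The 2 probes thus read the same single array as low.

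Aldh4a1 encodes the mitochondrial enzyme that turns glutamate semialdehyde into glutamate at the end of proline breakdown. Its brightest probe, A_64_P031640, read 6.45, 6.41 and 6.30 in water and 6.42, 6.59 and 6.49 in NTA, a difference of 0.11 ± 0.07 (log2, SE) with a 95% interval of -0.07 to 0.30 and an adjusted p of 0.598 (limma). The groups overlapped through NTA replicate 1, which was below water replicate 1. With normexp background correction the difference was 0.20 (adjusted p = 0.396, limma) and the groups did not overlap, with NTA above. The probe A_44_P495101 read 1.69, 1.58 and 1.58 in water against 1.65, 1.71 and 1.74 in NTA, and its difference was 0.08 ± 0.07. On the dimmest, A_64_P164296, the levels were 0.91, 0.69 and 0.62 in water and 0.86, 0.87 and 0.88 in NTA, and the difference was 0.13 ± 0.09. All 3 probes had a positive difference, and on all 3 the highest water array was replicate 1.

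Among 12 genes of proline and hydroxyproline breakdown, 12 were tested, 0 passed, and the median difference was 0.02. At an unadjusted p under 0.05 (limma) 1 was higher and 0 were lower, beside 7.76% and 4.51% of all genes. Hoga1, the aldolase at the end of hydroxyproline breakdown, differed by 0.15 ± 0.06 and Agxt, which transaminates the glyoxylate formed there, by 0.17 ± 0.08. Glud1, the glutamate dehydrogenase one step past Aldh4a1, read 6.16, 6.31 and 6.17 in water and 6.02, 6.14 and 6.13 in NTA, a difference of -0.11 ± 0.07 (adjusted p = 0.573, limma).

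Aldh6a1 encodes the methylmalonate semialdehyde dehydrogenase of mitochondria, which serves valine and thymine breakdown and releases an acyl-CoA. Its single probe, A_44_P555261, read 1.98, 1.99 and 1.81 in water and 1.86, 1.83 and 2.00 in NTA. The highest array and the lowest array differed by about the same amount within each group, and the groups overlapped. The difference was -0.03 ± 0.08 (log2, SE), with a 95% interval of -0.23 to 0.17 and an adjusted p of 0.919 (limma).

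The genes around Aldh6a1 act in branched-chain amino acid and propionate breakdown. Of 28 listed, 25 were tested and 0 passed. A difference above 0 was found for 19, beside 6754 of all 11965 genes, and the median was 0.14, beside 0.02 over all genes. The NTA arrays lay wholly above the water arrays for 12 of the 25 and wholly below for 1, beside 13.0% and 7.25% of all genes. An unadjusted p under 0.05 (limma) was reached by 11 as higher and 0 as lower, beside 7.76% and 4.51%. Under quantile normalization 8 of the 25 lay wholly above and 4 had such a p as higher, while 1127 and 738 of all 11965 genes did. Under that scaling 16 of the 25 had a difference above 0, beside 5903 of all genes. Echs1, which hydrates enoyl-CoA, read 6.67, 6.69 and 6.50 in water and 6.87, 6.97 and 6.97 in NTA, a difference of 0.32 ± 0.08 (adjusted p = 0.246, limma). Bckdha, a subunit of the branched-chain ketoacid dehydrogenase, differed by 0.27 ± 0.07. Mccc1, a subunit of the leucine pathway carboxylase, differed by 0.30 ± 0.09, and Dpys, the dihydropyrimidinase of thymine breakdown, by 0.25 ± 0.08. The Aldh6a1 value lay below the median of this list and opposite to it in sign, and the difference between them was not tested.

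Aldh8a1 encodes the dehydrogenase that acts on aminomuconate semialdehyde in the kynurenine pathway of tryptophan. Its single probe, A_44_P128306, read 3.03, 3.19 and 3.10 in water and 3.10, 3.06 and 3.16 in NTA. The NTA arrays lay inside the water span, and the ratio of the groups was 0.998 (log2 SE 0.07, with a 95% interval of -0.17 to 0.17 and an adjusted p of 0.995, limma). Of 13 kynurenine pathway genes, 11 were tested, 0 passed, and the median difference was 0.19, with 3 at an unadjusted p under 0.05 (limma) as higher and 0 as lower, beside 7.76% and 4.51% of all genes. Under quantile normalization 3 were higher and 2 lower at that p, beside 738 and 676 of all 11965 genes. With the array median as the scale 3 were higher and 1 lower, beside 699 and 689 of all genes. With normexp 3 were higher and 1 lower, beside 1064 and 551. Haao, which opens the ring of hydroxyanthranilate upstream of Aldh8a1, read 4.05, 4.24 and 4.14 in water and 4.64, 4.38 and 4.48 in NTA (0.36 ± 0.09, adjusted p = 0.273, limma). Kyat3 and Kyat1, both kynurenine aminotransferases, differed by 0.28 ± 0.07 and -0.19 ± 0.08. Nadsyn1, the last enzyme of NAD+ synthesis, differed by 0.29 ± 0.09. These 4 were named as those of smallest unadjusted p (limma) among the genes whose groups did not overlap. Kmo (0.22 ± 0.09) and Kynu (0.19 ± 0.09) were also separate, with NTA above. Over the 11 tested genes, NTA arrays lay wholly above for 5 and wholly below for 1, beside 13.0% and 7.25% of all genes. Under quantile normalization these counts were 4 and 2, beside 1127 and 1173 of all 11965 genes. With the array median as the scale they were 3 and 0, beside 1091 and 1152 of all genes.

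Aldh9a1 encodes the cytosolic dehydrogenase of trimethylaminobutyraldehyde, an intermediate of carnitine synthesis. The brighter probe, A_64_P130434, read 6.12, 6.37 and 6.24 in water and 6.36, 6.39 and 6.35 in NTA. The 3 NTA arrays lay close together near the top of the water span, with an SD of 0.02 against 0.13. The difference was 0.12 ± 0.08 (log2, SE), with a 95% interval of -0.07 to 0.32 and an adjusted p of 0.579 (limma). Within slide 3 it was 0.27, and within day 1 it was 0.05. Without water replicate 1 it was 0.06, without water replicate 2 it was 0.19, and with the mean of both probes it was 0.02. The other probe, A_43_P12194, read 3.27, 3.41 and 3.43 in water and 3.28, 3.16 and 3.44 in NTA, a difference of -0.08 ± 0.10, so that the 2 probes of this gene disagreed in sign. On the brighter probes of Aldh1a1 and Aldh9a1 and the probe of Aldh8a1, water replicate 1 was the lowest water array and water replicate 2 the highest.

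Of 12 listed genes of carnitine and betaine synthesis, 10 were tested and 0 passed, with a median difference of -0.01. An unadjusted p under 0.05 (limma) was reached by 2 as higher and 2 as lower, beside 7.76% and 4.51% of all genes. Tmlhe, the first enzyme of carnitine synthesis, read 5.03, 4.97 and 4.10 in water and 5.35, 5.48 and 5.42 in NTA. Water replicate 3 stood below the other 5 arrays, and the difference was 0.72 ± 0.26 (adjusted p = 0.357, limma), or 0.42 without that array. Bhmt, which remethylates homocysteine with betaine, read 5.86, 5.49 and 5.81 in water and 5.31, 5.22 and 5.20 in NTA, a difference of -0.48 ± 0.11 (adjusted p = 0.24, limma). Dmgdh and Sardh, the mitochondrial demethylases that follow it, differed by -0.20 ± 0.08 and 0.31 ± 0.11.

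Aldh7a1 is the lysine-breakdown member of the family, and with no matched probe for it only its neighbours were read. Of 9 genes of lysine breakdown, 9 were tested, 0 passed, and the median difference was 0.12, or 0.03 under quantile normalization. At an unadjusted p under 0.05 (limma), 3 were higher and 1 was lower, beside 7.76% and 4.51% of all genes. Aadat, an aminotransferase of the lysine and kynurenine routes, read 3.70, 4.96 and 4.03 in water and 5.85, 5.06 and 5.19 in NTA. The water arrays spread widely, and the difference was 1.14 ± 0.38 (adjusted p = 0.344, limma). Phykpl, the phospholyase of hydroxylysine breakdown, differed by 0.41 ± 0.13 and Dlst, a subunit of ketoacid dehydrogenase complexes, by 0.22 ± 0.06. Aass, which starts the main lysine route, differed by -0.20 ± 0.07.

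Of 17 genes of alcohol dehydrogenases and other enzymes that make aldehydes, 15 were tested and 0 passed. Their median was 0.15, and 14 lay above 0, beside 6754 of all 11965 genes. In each direction 1 reached an unadjusted p under 0.05 (limma), beside 7.76% of all genes as higher and 4.51% as lower. With the mean of all probes of a gene 12 of the 15 lay above 0, beside 6395 of all genes. Cyp2e1, an ethanol-oxidising cytochrome, read 6.52, 6.44 and 6.31 in water and 5.75, 5.60 and 6.12 in NTA. Its NTA arrays were all lower, with a difference of -0.60 ± 0.14 (adjusted p = 0.248, limma). Adh6, an alcohol dehydrogenase, was dim and read -4.67, -4.03 and -5.00 in water and -3.58, -3.28 and -3.84 in NTA (1.01 ± 0.28, adjusted p = 0.282, limma).

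**Figure D2:**
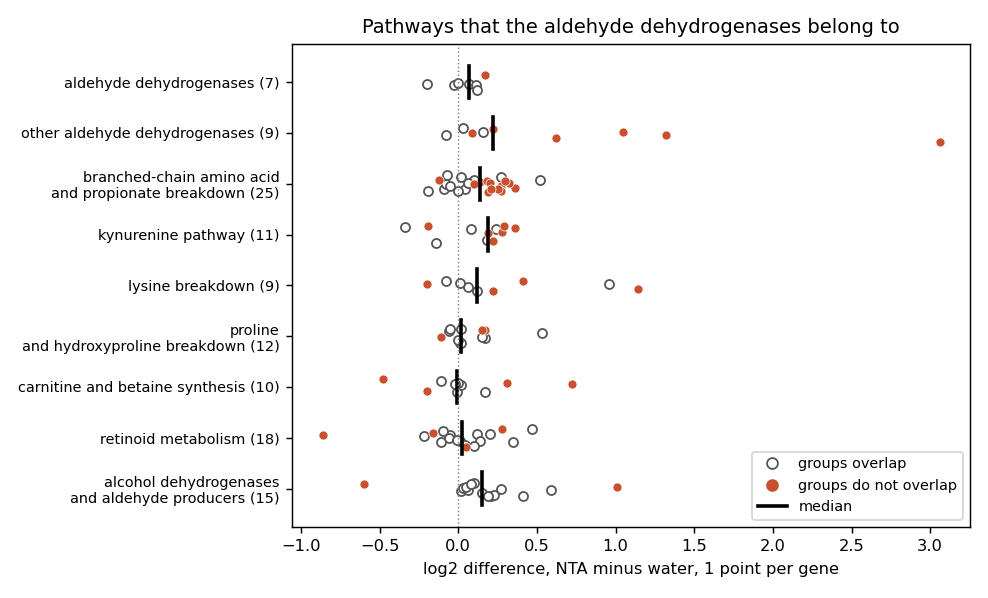
Log2 difference between NTA and water (horizontal axis) for each tested gene of the aldehyde dehydrogenases and of 8 further lists, with a filled point where the 3 arrays of a group do not overlap the 3 of the other and a bar at the median of the list. The medians lie between -0.01 and 0.22, and the highest, that of the aldehyde dehydrogenases outside the group of 7, was 0.09 with the mean of all probes of a gene, below the 0.18 of the kynurenine pathway.

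The rest of the family was listed as 12 further aldehyde dehydrogenases, of which 9 were tested, and 1 of these passed the threshold. Their median difference was 0.22, with 8 of the 9 above 0, beside 6754 of all 11965 genes. NTA arrays lay wholly above water arrays for 6 of the 9, beside 13.0% of all genes. Under quantile normalization this held for 5 of the 9 and for 1127 of all 11965 genes. With the mean of all probes of a gene in place of its brightest probe the median was 0.09. The NTA arrays then lay wholly above for 4 of the 9 and for 1441 of all 11965 genes. With normexp background correction the median was 0.15, and 5 of the 9 lay wholly above, beside 1648 of all genes. The difference between these 9 and the 7 genes above was not tested.

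Aldh1l1, the cytosolic formyltetrahydrofolate dehydrogenase of folate metabolism, read 4.49, 4.71 and 4.55 in water and 5.55, 5.72 and 5.63 in NTA on its single probe. The gap between the groups was wider than the span of either group. The signal before scaling was also separate, at 29654, 33880 and 30531 units in water and 57196, 59760 and 57556 in NTA. Aldh1l1 rose by 1.05 ± 0.08 (log2, SE), or 2.07-fold with a 95% interval of 1.79 to 2.39, at an adjusted p of 0.0472 (limma). The call was lost under quantile normalization (0.99, adjusted p = 0.0565, limma), with the array median as the scale (1.02, 0.0592), and with no filter on dim probes (1.05, 0.141). It was also lost with slide (1.23, 0.241) or scan day (1.05, 0.108) as a block. The slide-block difference is that between the 2 arrays of slide 3, since the other slides held 1 group each. Leaving out any 1 array gave 1.00 to 1.11 with adjusted p-values from 0.107 to 0.22 (limma).

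The mitochondrial counterpart of that enzyme, Aldh1l2, read -3.58, -3.19 and -3.07 in water and -2.75, -2.61 and -2.63 in NTA (0.62 ± 0.14, adjusted p = 0.231, limma). Its second, dimmer probe differed by 0.17 ± 0.21. Aldh1b1, a mitochondrial acetaldehyde dehydrogenase, read -3.75, -0.43 and -2.82 in water and 0.95, 0.26 and 0.97 in NTA. The water arrays of Aldh1b1 spread over 3 log2 units, with replicate 2 far above the others, and the difference of 3.06 ± 0.84 had an adjusted p of 0.282 (limma). Its second probe differed by 0.78 ± 0.15, so the 2 probes shared a direction and not a size.

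Aldh3b1, which oxidises aldehydes derived from membrane lipids, read -0.85, -0.01 and -0.67 in water and 0.48, 1.22 and 0.74 in NTA. Its NTA arrays were all higher, and the difference was 1.32 ± 0.28 (adjusted p = 0.225, limma), beside 1.20 ± 0.30 on the second probe. Aldh3a1, a cytosolic enzyme known for its abundance in the cornea, differed by 0.22 ± 0.07 on one probe and by -0.11 ± 0.14 on the other. Aldh18a1, the bifunctional enzyme that starts proline synthesis, differed by 0.16 ± 0.14 and, on its second probe, by -0.09 ± 0.22. Aldh16a1 differed by 0.09 ± 0.07, with groups that overlapped under quantile normalization. The retinaldehyde dehydrogenases Aldh1a2 and Aldh1a3, both dim here, differed by 0.03 ± 0.09 and -0.08 ± 0.17.

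**Figure D3:**
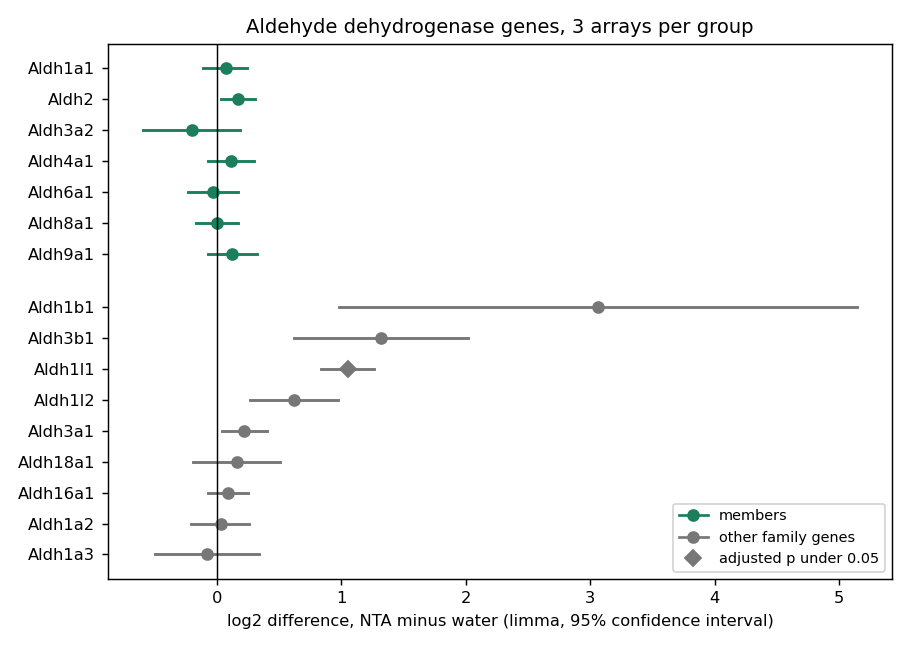
Log2 difference between NTA and water with its 95% interval (horizontal axis) for the 7 measured aldehyde dehydrogenases of the group and the 9 other family members, with a diamond for the gene past an adjusted p of 0.05. The intervals of 6 of the 7 include 0, that of Aldh2 runs from 0.03 to 0.31, and Aldh1l1 at 1.05 is the 1 diamond.

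Promoter sequence was read from RefSeq (assembly GRCr8) for the 250 bases before the annotated start. Of the 9 genes of the group 7 had an entry, among them Aldh7a1. Aldh2 and Aldh1a7 had none, so these 7 are not the 7 measured genes. Shown here are Aldh1a1, the cytosolic retinoid enzyme, and Aldh3a2, the lowest of the differences, beside Aldh1l1, the gene that rose, with the letters of the CCAAT box in capitals as CCAAT or, on the opposite strand, ATTGG. The windows are chr1:227537370-227537619 on the plus strand for Aldh1a1, chr10:46448336-46448585 on the minus strand for Aldh3a2 and chr4:124616970-124617219 on the plus strand for Aldh1l1, each printed 5′ to 3′ along its gene.
Aldh1a1: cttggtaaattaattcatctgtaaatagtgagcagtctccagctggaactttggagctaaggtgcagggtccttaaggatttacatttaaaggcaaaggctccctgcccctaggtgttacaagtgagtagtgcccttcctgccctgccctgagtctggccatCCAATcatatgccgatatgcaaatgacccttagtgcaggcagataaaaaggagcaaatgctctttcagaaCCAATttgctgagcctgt
Aldh3a2: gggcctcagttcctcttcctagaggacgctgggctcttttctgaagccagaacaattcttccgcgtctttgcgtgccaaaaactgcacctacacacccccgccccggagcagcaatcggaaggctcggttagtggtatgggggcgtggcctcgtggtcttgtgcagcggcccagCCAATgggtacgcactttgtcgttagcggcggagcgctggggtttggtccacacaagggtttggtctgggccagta
Aldh1l1: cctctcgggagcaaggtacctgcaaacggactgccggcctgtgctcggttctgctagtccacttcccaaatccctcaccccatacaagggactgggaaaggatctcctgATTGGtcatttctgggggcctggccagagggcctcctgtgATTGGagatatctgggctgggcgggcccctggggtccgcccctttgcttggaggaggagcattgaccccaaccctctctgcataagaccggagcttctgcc

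CCAAT was found on either strand in 5 of the 7 windows of the group and in 6 of the 9 windows of 8 other family members. It was found in 34% of the 33469 promoter windows of the same length. Aldh1a1 and Aldh1l1 each held 2 matches and Aldh3a2 held 1. The letters TGACNNNGC, the core of the antioxidant response element, were found in 0 of the 7 windows, among which Aldh2 has none. They were found in the windows of 2 of 8 other family members and in 10.1% of all windows. TATAAA was found in 1 of the 7, Aldh4a1, and in 12.9% of all windows. The number of CpG dinucleotides per window ran from 1 in Aldh1a1 to 17 in Aldh9a1, beside a median of 5 over all windows. Neither of the latter motifs occurs in the 3 sequences printed, and a match of letters is a description of the window.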

How the data were processed

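The intensity values used were the processed signal of each spot, as the authors deposited them, which Agilent Feature Extraction 10.7.1.1 had made by subtracting background without scaling between arrays, per the file headers (10.7 per the submitters' processing notes). They are linear. In a second table deposited by the authors each value is a ratio of processed signal to an array constant, and that constant lay within 0.072% of the 75th percentile. This table is linear, rises with signal and has column medians of 0.11 to 0.115, and no source used here states its scaling.

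Probes were named by unversioned transcript accession through RefSeq's GRCr8 gene table, which named 27460 probes for 15284 genes and left 34113 unnamed. Levels are log2 signal minus the 75th percentile over the 61657 probes that were not controls. Spots marked as outliers and 84 spike-in probes were left out, and saturated spots, 2 to 4 per array, were kept. Testing required all 3 arrays of at least 1 group to be well above background, and each gene took its probe of highest mean. All 6 arrays entered 1 fit of NTA against water in limma 3.58.1 (R 4.3.3, with eBayes untrended). P-values are two-sided, were adjusted by Benjamini-Hochberg and had 0.05 as the threshold. SE and intervals come from that model, SD from the arrays of a group. The fit was tested on simulated data.

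Genes named were all probes of the group, every other measured aldehyde dehydrogenase, up to 4 non-overlapping members of smallest p per pathway list, and the 3 genes most like Aldh2. The cell type markers named and the printed promoters were chosen after their values were seen. The group, the lists and the tests were chosen with earlier results of these data known. The number of arrays limits the precision. Slide and scan day came from the file headers. Alternatives were other scalings, background corrections, filters, probe rules, blocks and left-out arrays. Of these, normexp on the median signal was chosen after seeing the data, because the files hold no mean signal.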

Additional observations from a re-analysis of the deposited data

How the results depend on the processing

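The 7 genes had 0 calls under every alternative run. With normexp on the median signal the NTA arrays lay wholly above for 2 of the 7, Aldh2 and Aldh4a1, beside 1648 of all 11965 genes. Aldh2 ran from 0.10 to 0.23 over the alternatives, with adjusted p-values of 0.211 to 0.597 (limma). It stayed at 0.17 with the deposited value table, other filters, eBayes trend and robust, and scan day or replicate as a block. These alternatives leave the estimate as it is or nearly so, and its sign there carries no weight. The 9 genes called over the array became 0 under quantile normalization, the array median, no filter on dim probes, scan day as a block and the replicate block, 20 with normexp on the median signal, 38 with eBayes trend and robust, 5 with slide as a fixed block, and 0 to 5 with any 1 array left out (5 without NTA replicate 2). The median of the 7 was -0.01 under quantile normalization, 0.14 with slide as a fixed block and within the shared slide, and 0.01 (without water replicate 1) to 0.12 with 1 array left out. The fixed slide block takes each difference from the 2 arrays of the shared slide alone, so it repeats the value within that slide. Signs reversed for Aldh1a1 (-0.01, and -0.04 on its second probe, quantile; -0.03 on the second probe, normexp), Aldh8a1 (0.02, slide block), the third Aldh4a1 probe (-0.03, slide block) and Aldh1a2 (-0.00 array median, -0.02 normexp, -0.16 slide block). With 1 array left out, Aldh1a1 ran from 0.01 to 0.12, Aldh2 from 0.14 to 0.19, Aldh3a2 from -0.30 to -0.03, Aldh4a1 from 0.07 to 0.15, Aldh9a1 from 0.06 to 0.19, Aldh6a1 from -0.09 to 0.00, Aldh8a1 from -0.04 to 0.04, the second Aldh1a1 probe from -0.07 to 0.08, Aldh1a2 from -0.04 to 0.09 and Aldh1a3 from -0.23 to 0.10. Within the shared slide Aldh1a1 was 0.19, Aldh2 0.23, Aldh3a2 -0.63, Aldh6a1 -0.15 and Aldh9a1 0.27, and Aldh8a1 (0.02) and Aldh1a2 (-0.16) had the opposite sign. Within the other scan day the sign was also opposite for Aldh3a2 (0.01), Aldh6a1 (0.03) and Aldh1a3 (0.12). Deviations of same-numbered arrays from their group means correlated at r of 0.07, -0.09 and 0.04. Water replicate 1 and NTA replicate 2, which share a slide, had an r of 0.04. Such values therefore cannot tell whether arrays of the same number share more than the number. With the replicate block Aldh2 was 0.17 (adjusted p = 0.476, limma) and Aldh1l1 1.05 (adjusted p = 0.25), within 0.00965 to 0.25 over its alternatives. The cause of these shifts was not tested.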
